A study of Arabidopsis thaliana with 9 samples.

Results

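The glycine-rich protein genes around GRP9 are 5 neighbours on chromosome 2 of Arabidopsis thaliana: GRP3S (AT2G05380), GRP9 (AT2G05440), AT2G05510, GRP3 (AT2G05520) and AT2G05530. They are 5 of the 24640 genes listed in the deposited files. GRP9 was chosen because its transcript was lower in both mutants than in wild type. The other 4 were chosen by gene family and position, with earlier results of these data known. GRP9's difference from wild type is given as a description with no test.

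Poly(A) RNA of whole seedlings was sequenced from 3 genotypes with 3 libraries each. They were the bbx20 bbx21 bbx22 triple mutant (bbx202122), the hy5 mutant and wild type (WT, Col-0). All seedlings were 4 days old and had been raised in red light after stratification, a pulse of white light and a dark period. The labels give an ecotype for WT, and neither an ecotype nor the alleles for the mutants. The bZIP protein HY5 drives the light-grown form of the seedling, and the zinc-finger proteins BBX20 to BBX22 act together with it. The libraries carry replicate numbers but no named cultures. The spread behind each p-value may therefore be technical. The libraries held 21577036 to 22778710 expected counts each. In a single library 3 counts correspond to 0.127 to 0.143 CPM, which are counts scaled to the library total.

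As a check of the genotypes, BBX21 averaged 25.7 ± 1.1 CPM in bbx202122 and 101 ± 8.7 CPM in WT (SD, n = 3 each), and BBX22 averaged 2.7 ± 0.27 CPM in bbx202122 and 28.9 ± 0.37 CPM in WT. BBX20 was at 4.1 ± 0.29 CPM in bbx202122 and 4.57 ± 0.37 CPM in WT (edgeR quasi-likelihood test, adjusted p = 0.48), and the deposited counts do not say which part of the gene they come from. HY5 averaged 6.34 ± 0.47 CPM in bbx202122, 8.23 ± 1.5 CPM in hy5 and 16.8 ± 1.5 CPM in WT, and it fell in both mutants.

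Glycine-rich proteins are a loose group of plant proteins whose sequence is dominated by glycine repeats. Many carry a signal peptide and are found in the cell wall or outside the plasma membrane, while others bind RNA. GRP3 is known to bind the extracellular domain of the wall-associated kinase WAK1, and GRP9 is known to interact with the lignin-pathway enzyme CAD5. GRP3S is annotated as a short relative of GRP3, and AT2G05510 and AT2G05530 as glycine-rich family proteins.

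The 5 genes lie on the plus strand of chromosome 2 within 63.9 kb (TAIR10.1). GRP3S spans chr2:1966610-1968142, GRP9 chr2:1993038-1994177, AT2G05510 chr2:2015624-2016772, GRP3 chr2:2025991-2027283 and AT2G05530 chr2:2029687-2030544. The gaps between neighbours are 24.9, 21.4, 9.2 and 2.4 kb in that order. Between the first and the last member lie 15 other annotated genes, 9 of them pseudogenes, and 0 of the 15 passed the filter on low counts. Glycine made up 49.4% of the protein translated from the longest coding sequence of GRP9, 41.7% for AT2G05510, 32.4% for GRP3, 30.4% for AT2G05530 and 28% for GRP3S.

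By coding sequence 4 of the members form pairs, GRP9 with AT2G05510 and GRP3S with GRP3, and the genes of the GRP3 pair have both others between them. GRP9 and AT2G05510 were identical at 94.6% of aligned coding bases, and GRP3S and GRP3 at 89.9%. The other pairs of members were identical at 73.3 to 84.8%. The longest stretch shared by the coding sequences of each pair is shown because a read that lies wholly within it matches both genes. It is 53 bases for GRP9 (chr2:1993672-1993724) and AT2G05510 (chr2:2016330-2016382), and 60 bases for GRP3S (chr2:1967665-1967724) and GRP3 (chr2:2026718-2026777), all on the plus strand.
GRP9 and AT2G05510: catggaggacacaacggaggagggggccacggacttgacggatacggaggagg
GRP3S and GRP3: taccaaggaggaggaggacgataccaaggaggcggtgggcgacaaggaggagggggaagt
Both stretches are rich in the letters GG, with which every glycine codon begins.

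Long stretches of exactly shared sequence were otherwise scarce, and stretches with mismatches were not counted. Of the 50-base words in their transcripts, GRP9 shared 0.448% with AT2G05510, which shared 0.409% with GRP9. GRP3S shared 1.22% with GRP3, which shared 0.946% with GRP3S. The 5 members shared 0 such words with any gene outside the set, and 0 words of 100 bases with each other. The counts themselves show sharing within these pairs. The expected count was not a whole number in 9 of 9 libraries for GRP3S and in 8 of 9 for GRP9. The sum of GRP9 and AT2G05510 and the sum of GRP3S and GRP3 were nevertheless whole in 9 of 9 (tolerance 0.005 counts). This check was chosen after the counts were seen.

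The upstream sequences of GRP9 and AT2G05510 were also the most alike, with 82.3% identity over the aligned bases of the 400 before the start codon, which include the annotated leader. The other pairs reached 61.7 to 71.1%. Because HY5 is known to bind sites with an ACGT core, the aligned stretches around these letters are shown, with ACGT in capitals and positions counted back from the start codon. The stretches were chosen after the values were seen and were placed around the ACGT sites of AT2G05510, so its own matches were fixed by that choice. They lie upstream of the annotated gene start on the plus strand, in the order chr2:1992819-1992872, chr2:2015490-2015544, chr2:1966552-1966609, chr2:2025935-2025988 and chr2:2029468-2029522.
GRP9: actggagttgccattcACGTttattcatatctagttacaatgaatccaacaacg
AT2G05510: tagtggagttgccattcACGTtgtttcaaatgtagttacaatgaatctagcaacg
GRP3S: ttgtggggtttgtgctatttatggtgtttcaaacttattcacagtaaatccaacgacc
GRP3: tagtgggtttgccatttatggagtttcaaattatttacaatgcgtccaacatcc
AT2G05530: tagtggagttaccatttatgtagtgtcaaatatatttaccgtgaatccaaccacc

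In this stretch ACGT was found in GRP9, at -299, and in AT2G05510, at -300, and in none of the other 3 members. GRP3S held ACGT at -338 and -326, upstream of its stretch, so the edges of the stretch decide this contrast in part. A further ACGT lies downstream in the same pair, at -238 in GRP9 (stretch chr2:1992886-1992916) and -239 in AT2G05510 (stretch chr2:2015558-2015591). In AT2G05530 (stretch chr2:2029536-2029571) an ACGT at -207 lies within 8 alignment columns of it.
GRP9: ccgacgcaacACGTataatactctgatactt
AT2G05510: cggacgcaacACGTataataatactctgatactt
AT2G05530: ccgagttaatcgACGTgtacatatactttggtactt
GRP3S and GRP3 held no ACGT within 8 columns of that position. Within 250 bases before the gene start, searched on both strands, GRP3S held 3 ACGT, GRP9 and AT2G05510 held 2 each, AT2G05530 held 1 and GRP3 held 0. Of 27443 promoters of that length, 44.1% held at least 1 ACGT, 14.9% at least 2 and 4.43% at least 3. The G-box CACGTG, which contains ACGT, was in 0 of the 5 windows and in 6.49% of all promoters. GACGTG, which also contains ACGT, was in AT2G05530 alone among the members and in 5.89% of all promoters. TATAAA, counted on either strand, occurred 2 times in AT2G05510 and 3 times in AT2G05530, against 47.3% of all promoters with at least 1. The matches in AT2G05510, at -155 and -15 from the gene start, lie on the minus strand, opposite to the gene. So does the match at -234 from the gene start in AT2G05530. These are matches of letters and do not show binding.

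Per transcript length, the members differed widely in WT. GRP3S averaged 905 ± 87 FPKM (fragments scaled to transcript length and library size; SD, n = 3) and ranked 69 of 23784 genes above 0. GRP3 followed with 512 ± 8.4 FPKM and rank 138. GRP9 averaged 42.1 ± 6.8 FPKM and AT2G05510 35.8 ± 6.3 FPKM, and the libraries of this pair overlapped, so their order in WT is not separated by the spread. AT2G05530 averaged 0.11 FPKM. In both mutants GRP9 lay below AT2G05510: it averaged 9.43 against 19.7 FPKM in bbx202122 and 3.95 against 8.67 FPKM in hy5, with no overlap between the genes' libraries within a genotype.

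GRP9 was lower in both mutants than in WT, and lower in hy5 than in bbx202122. Its level was 4.69, 6.39 and 5.69 CPM in bbx202122, 2.58, 2.72 and 2.03 CPM in hy5, and 20.3, 28 and 27.8 CPM in WT. The 3 genotypes did not overlap. The fitted log2 fold change was -2.18 ± 0.14 (SE) in bbx202122 against WT, or 4.53-fold lower, and -3.37 ± 0.16 in hy5 against WT, or 10.36-fold lower. These values chose the gene and carry no test. The comparison of the mutants was not used in the choice. There GRP9 was higher in bbx202122 than in hy5 by 1.19 ± 0.19 on the log2 scale (edgeR quasi-likelihood test, adjusted p = 0.00039), with no overlap between libraries. The libraries held 381 counts of GRP9 in all in bbx202122, 154 in hy5 and 1685 in WT.

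AT2G05510, the closest relative of GRP9, also fell in both mutants. Its level was 8.36, 11.7 and 18.2 CPM in bbx202122, 7.21, 5.44 and 5.04 CPM in hy5, and 19.4, 24.4 and 27.5 CPM in WT. The third bbx202122 library came close to the lowest WT library, and the genotypes did not overlap. The log2 fold change was -0.90 ± 0.20 in bbx202122 against WT (edgeR, adjusted p = 0.0063) and -2.01 ± 0.22 in hy5 against WT (adjusted p = 5.2e-06). AT2G05510 was higher in bbx202122 than in hy5 by 1.12 ± 0.24 (adjusted p = 0.0034). Without the third bbx202122 library the difference from hy5 was 0.76 and that from WT -1.26.

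Since GRP9 and AT2G05510 share reads, their sum was fitted as well. It was 13, 18.1 and 23.8 CPM in bbx202122, 9.79, 8.16 and 7.07 CPM in hy5, and 39.7, 52.5 and 55.3 CPM in WT. The sum was -1.42 ± 0.16 on the log2 scale in bbx202122 against WT and -2.56 ± 0.18 in hy5 against WT, given without a test because it contains GRP9. It was higher in bbx202122 than in hy5 by 1.14 ± 0.20 (edgeR, adjusted p = 0.00073). GRP9 made up 31.6 ± 6.8% of the pair's counts in bbx202122, 29.3 ± 3.5% in hy5 and 51.6 ± 1.7% in WT (SD, n = 3 each). The share in bbx202122 and hy5 was not separated by an exact permutation test (two-sided p = 0.7, where 3 against 3 allows no p below 0.1).

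**Figure D1:**
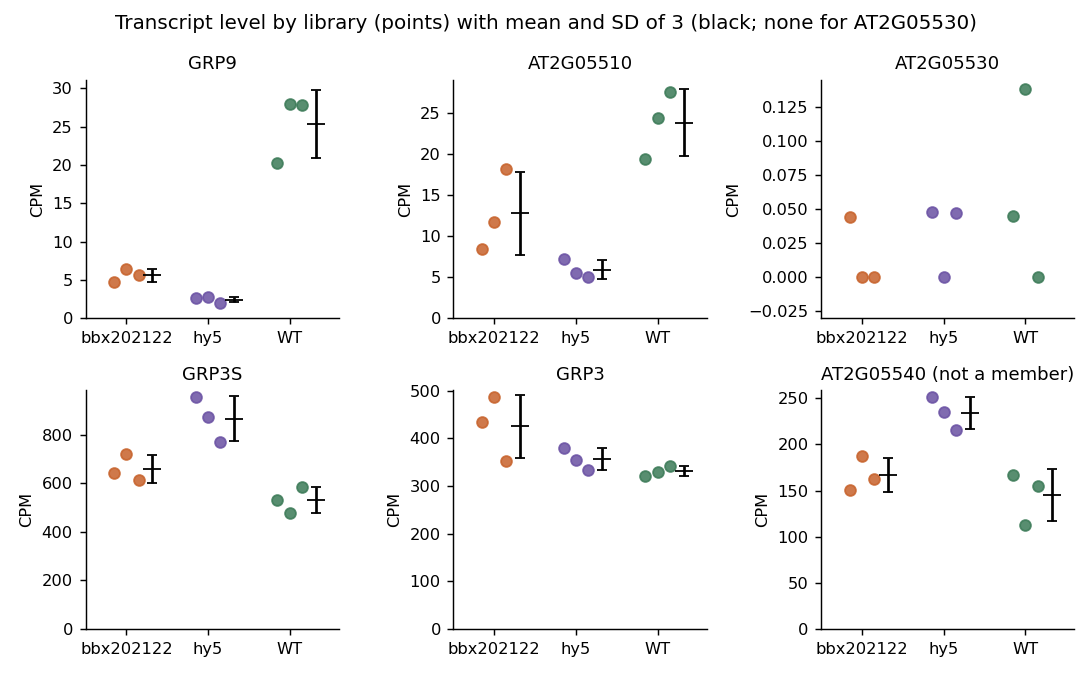
Level of the 5 members and of the neighbouring gene AT2G05540 in CPM (linear axes) in each library of bbx202122, hy5 and WT, with the mean and SD of 3 libraries in black except for AT2G05530. GRP9 and AT2G05510 were below every WT library in both mutants, GRP3S was above, and AT2G05530 stayed at 3 counts or fewer.

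Markers of root hairs, which are tubular outgrowths of root epidermal cells, moved with GRP9 and AT2G05510. EXPA7 and EXPA18, expansins that loosen the wall of root hairs, and COBL9 (SHV2), which is needed for root hair growth, fell in both mutants (3 of 3), where 8.27% of all genes fell in bbx202122 and 19.8% in hy5. Their summed level was 21.4 to 26 CPM in bbx202122, 12.8 to 16.3 CPM in hy5 and 46 to 51.1 CPM in WT, with none at 0. Of the 3 other root markers, 1 rose and 1 fell in bbx202122 and 2 fell in hy5. The markers were chosen with earlier results of these data known. The part of root hairs in the levels of GRP9 and AT2G05510 was not tested. In whole seedlings, fewer cells of a type and less RNA per cell cannot be told apart.

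GRP3S, the gene with the highest level in the row, rose in both mutants. Its level was 641, 723 and 615 CPM in bbx202122, 955, 874 and 770 CPM in hy5, and 533, 477 and 586 CPM in WT. All mutant libraries were above all WT libraries, and the hy5 libraries above those of bbx202122. The log2 fold change was 0.31 ± 0.09 in bbx202122 against WT (edgeR, adjusted p = 0.028) and 0.70 ± 0.09 in hy5 against WT (adjusted p = 2.1e-05). In bbx202122 against hy5 it was lower, with a log2 fold change of -0.39 ± 0.09 (adjusted p = 0.0055). The call against WT in bbx202122 was lost without WT replicate 1 (adjusted p = 0.072), WT replicate 2 (0.13) or bbx202122 replicate 2 (0.12).

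GRP3, the ligand-like partner of WAK1, rose in bbx202122 and was not separated from WT in hy5. Its level was 435, 486 and 353 CPM in bbx202122, 380, 355 and 333 CPM in hy5, and 321, 330 and 342 CPM in WT. The bbx202122 libraries were above all WT libraries, while the hy5 and WT libraries overlapped. The log2 fold change was 0.36 ± 0.09 in bbx202122 against WT (edgeR, adjusted p = 0.014) and 0.10 ± 0.09 in hy5 against WT (adjusted p = 0.39). The call in bbx202122 was lost without WT replicate 1 (adjusted p = 0.054) or bbx202122 replicate 2 (0.07). Between bbx202122 and hy5 the value was 0.26 ± 0.09 (edgeR, adjusted p = 0.056) and the libraries overlapped, and this difference was called under 6 of 17 other settings (adjusted p 0.0023 to 0.25).

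The share of GRP3S in the summed counts of GRP3S and GRP3 was compared as well. GRP3S made up 60.9 ± 2.2% of the pair in bbx202122, 70.8 ± 0.9% in hy5 and 61.5 ± 2.1% in WT (SD, n = 3 each). All hy5 libraries were above all WT libraries, for which the exact permutation test gives its smallest possible value (two-sided p = 0.1). In bbx202122 against WT the exact p was 1. The sum of the pair rose by 0.33 ± 0.09 on the log2 scale in bbx202122 (edgeR, adjusted p = 0.018) and by 0.50 ± 0.09 in hy5 (adjusted p = 0.00034) against WT. In bbx202122 against hy5 the sum had a log2 fold change of -0.17 ± 0.09 (edgeR, adjusted p = 0.18), so the difference of GRP3S between the mutants was not called for the pair as a whole.

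**Figure D2:**
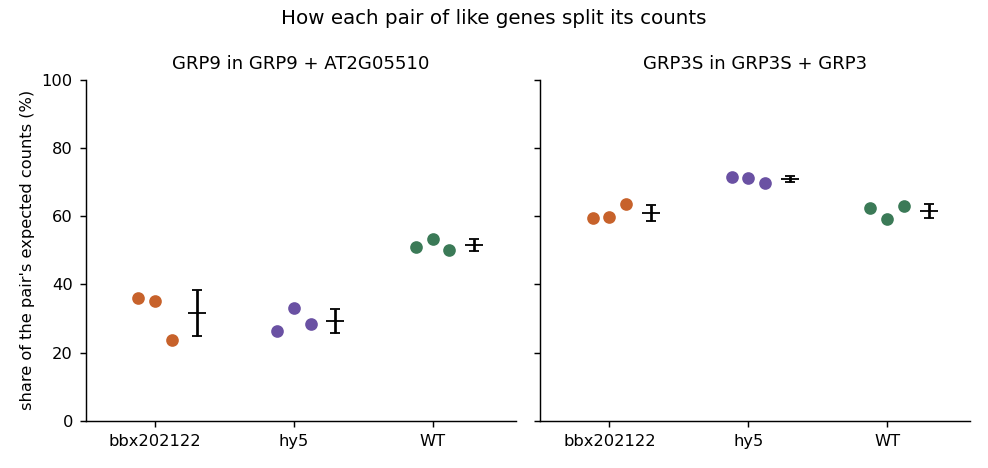
Share of GRP9 in the counts of GRP9 and AT2G05510 and of GRP3S in those of GRP3S and GRP3, in percent per library of bbx202122, hy5 and WT, with mean and SD of 3 libraries in black. GRP9's share was 31.6 and 29.3% in the mutants against 51.6% in WT, and GRP3S's share was 70.8% in hy5 against 61.5% in WT.

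AT2G05530 was near the limit of detection in all genotypes. It had 1, 0 and 0 counts in bbx202122, 1, 0 and 1 in hy5, and 1, 3 and 0 in WT. It did not pass the filter on low counts, and no difference was detectable at this depth.

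Of the 4 members that passed the filter, 3 are set here against all 20751 genes tested. These 3 were chosen by gene family and position, with earlier results of these data known. In bbx202122 against WT 2 of these 3 rose and 1 fell, where 16.9% of all genes were called (8.62% higher and 8.27% lower). Without WT replicate 2 the calls over all genes were 2236, against 3504 with it. The bbx202122 and WT libraries of these 3 did not overlap, with 2 higher and 1 lower in bbx202122, where 16.7% of all genes had no overlap and were higher and 15.8% had no overlap and were lower. GRP9 is left out of these counts because its choice fixed its direction. In hy5 against WT 1 of the 3 rose and 1 fell, where 39.5% were called (19.6% higher and 19.8% lower). The libraries of the same 2 did not overlap with WT, where the shares of all genes were 25.7% higher and 25.9% lower. In bbx202122 against hy5 2 of the 4 were higher and 1 was lower, where 23% were called (12.1% higher and 10.9% lower). The libraries did not overlap for these 3, where the shares of all genes were 20.3% higher and 18.4% lower. The comparisons with WT share the WT libraries. The members as a whole made up 1103 ± 120 CPM in bbx202122, 1230 ± 120 CPM in hy5 and 912 ± 64 CPM in WT (SD, n = 3 each), most of it GRP3S and GRP3.

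**Figure D3:**
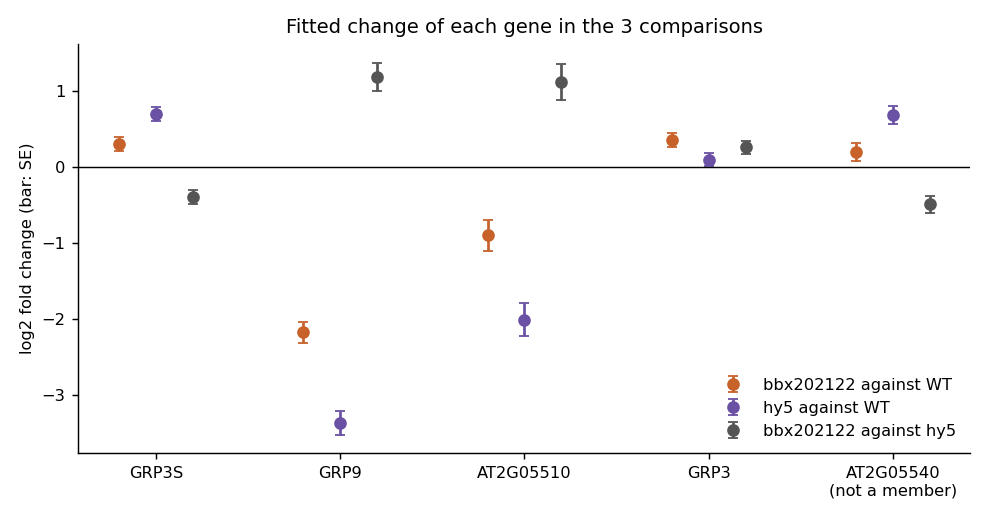
Fitted log2 fold change with its SE for the 4 members that passed the filter and for AT2G05540, for each mutant against WT and for bbx202122 against hy5. GRP9 and AT2G05510 were below 0 against WT in both mutants and above 0 in bbx202122 against hy5, and GRP3S showed the opposite signs.

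Of the 20 genes flanking the row, 10 on each side, 4 passed the filter. In hy5 against WT 1 of these 4 rose, where 19.6% of all genes rose. The gene that rose was AT2G05540, a glycine-rich gene that directly follows AT2G05530 and whose protein is 25.9% glycine. It averaged 167 ± 19 CPM in bbx202122, 234 ± 18 CPM in hy5 and 145 ± 28 CPM in WT. The log2 fold change was 0.20 ± 0.12 in bbx202122 against WT (edgeR, adjusted p = 0.26), 0.69 ± 0.12 in hy5 against WT (adjusted p = 0.00023) and -0.49 ± 0.11 in bbx202122 against hy5 (adjusted p = 0.0068). The other glycine-rich neighbour, AT2G05580 (55.3% glycine), averaged 0.394 CPM in bbx202122, 0.536 CPM in hy5 and 0.39 CPM in WT (edgeR, adjusted p = 0.99 in bbx202122 against WT and 0.58 in hy5 against WT). The expected counts of AT2G05540 were whole numbers in every library.

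**Figure D4:**
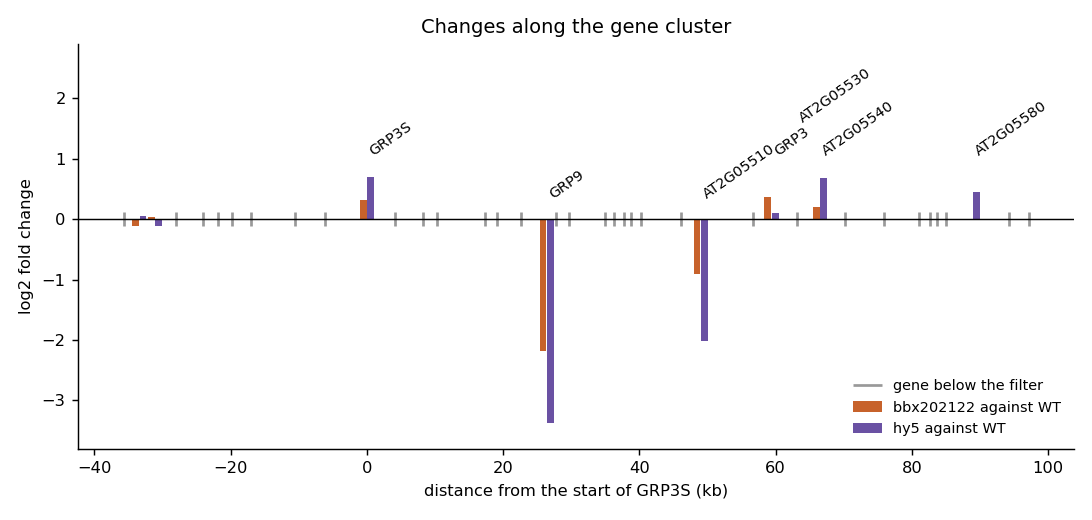
Log2 fold change in bbx202122 against WT and hy5 against WT along the row of genes, against distance from the start of GRP3S in kb. Bars are genes that passed the filter (bar width is not gene length), and grey ticks are genes below it. GRP9 and AT2G05510 point down while GRP3S, GRP3 and AT2G05540 point up, with no tested gene between the members.

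Markers of the shoot epidermis moved with GRP3S in hy5. CER6 and FDH, which make cuticular lipids, and ATML1 and PDF1, a regulator and a marker of the outermost layer, rose in hy5 against WT (4 of 4 by edgeR and DESeq2 and 3 of 4 by limma, where 19.6% of all genes rose). In bbx202122 against WT, where GRP3S also rose, 0 of the 4 were called by edgeR, DESeq2 or limma, 1 of 4 had an unadjusted p under 0.05 with each tool, and their median log2 fold change was 0.05. Their summed level was 1128 to 1280 CPM in bbx202122, 1496 to 1574 CPM in hy5 and 1053 to 1183 CPM in WT, with none at 0. These markers, too, were chosen with earlier results of these data known. The part of the shoot epidermis in the level of GRP3S was not tested. Among the other markers, 2 of 3 mesophyll markers fell in bbx202122. Of 4 guard cell markers 1 rose and 1 fell in each mutant. In hy5 3 of 5 vascular markers and 2 of 4 markers of ungerminated seed rose. GRP3 is known to respond to abscisic and salicylic acid. Of 5 genes known to respond to abscisic acid, 3 rose in hy5 and 1 rose and 1 fell in bbx202122. Of 3 tested salicylic acid genes 1 rose and 1 fell in hy5 and 1 rose in bbx202122. For all marker and hormone counts here, the shares of all genes were 8.62% higher and 8.27% lower in bbx202122. In hy5 they were 19.6% higher and 19.8% lower.

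Of 8 genes for known partners of GRP3 and GRP9 or their relatives, 6 were tested, and 1 fell in bbx202122 while 1 rose and 2 fell in hy5 against WT, beside 16.9% and 39.5% of all genes called in these comparisons. CAD5, the GRP9 partner that reduces cinnamaldehydes to the alcohols from which lignin is made, had a log2 fold change of 0.04 ± 0.06 in bbx202122 (edgeR, adjusted p = 0.74) and rose by 0.24 ± 0.06 in hy5 (adjusted p = 0.0061). CAD4, the related enzyme, fell in both, with -0.67 ± 0.05 in bbx202122 (edgeR, adjusted p = 1.8e-06) and -0.98 ± 0.05 in hy5. WAK2, a wall-associated kinase, had -0.01 ± 0.08 in bbx202122 and fell in hy5, with -0.66 ± 0.08 (edgeR, adjusted p = 1.8e-05). WAK1 itself had 0.52 ± 0.30 in bbx202122 and 0.38 ± 0.30 in hy5, WAK4 had 0.55 ± 0.38 and 0.60 ± 0.38 in the same order, and KAPP, a phosphatase found with WAK1 and GRP3, had 0.13 ± 0.06 and 0.15 ± 0.06. These 3 did not pass the test in either mutant, and WAK3 and WAK5 were not listed. WAK1 averaged only 1.32 CPM in bbx202122, 1.2 CPM in hy5 and 0.919 CPM in WT. WAK4 averaged 0.64, 0.661 and 0.437 CPM in the same order.

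By profile over the 9 libraries, GRP9 was most like AT3G49960 and AT4G26010 (peroxidase family), AT5G37690 (an SGNH hydrolase-type esterase), AT1G13650 (uncharacterized) and ABCI20 (an ABC protein). Likeness was the Euclidean distance between values of log2(CPM + 0.5) centred on each gene's mean, over 15783 genes with at least 5 CPM on average, and is given with no p. The distance to AT3G49960 was 1.04. AT2G05510 was at rank 25 for GRP9, with a distance of 1.82, while GRP9 was at rank 491 for AT2G05510. AT2G05510 was most like BGLU19 (a beta glucosidase, distance 0.49), PEN3 (AT5G36150, a putative pentacyclic triterpene synthase), GSTU14, AT4G28940 and AT1G64590. GRP3S was most like AAE5, AT1G61740, AT1G03610, AGP4 and AT1G22910, and GRP3 most like AT3G02930, MIF1, AT5G19960, AT5G53330 and SERK4.

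**Figure D5:**
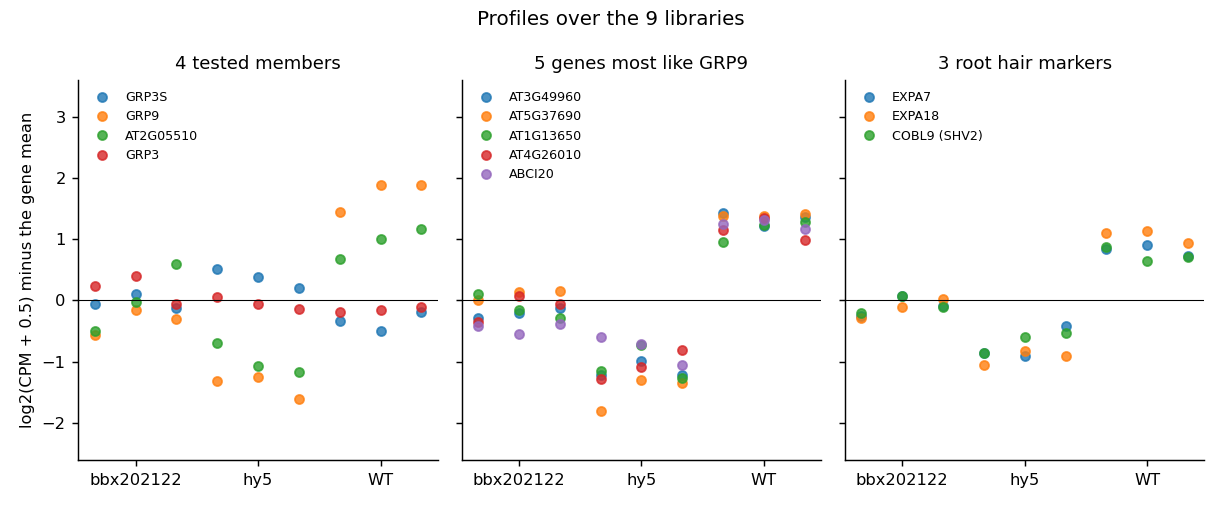
Centred log2(CPM + 0.5) in each library of bbx202122, hy5 and WT (points in replicate order, which has no meaning) for the 4 tested members, the 5 genes most like GRP9 and 3 root hair markers. GRP9, its likest genes and the root hair markers were lowest in hy5 and highest in WT. The likest genes were picked for that likeness, and the markers were chosen with earlier results of these data known.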

How the data were processed

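Per the submitters' processing notes, the reads were handled by the authors with Bowtie2 2.2.5, RSEM 1.2.12 and HISAT on the TAIR10 build. The deposited files hold expected counts estimated by RSEM, unscaled and partly fractional, and the authors' FPKM values. RSEM divides reads that match several genes, so the members' counts are estimates. Genes absent from a library's file were given 0 there. Rounded counts were modelled in edgeR 4.0.16 under R 4.3.3 (TMM, filterByExpr by genotype, quasi-likelihood F test, two-sided, Benjamini-Hochberg over 20751 genes), with 1 mean per genotype over 9 libraries. A gene is called at an adjusted p under 0.05. The SE is the absolute log2 fold change over the square root of F. Values are TMM-scaled CPM, except where FPKM is named. The script was tested on simulated data.

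The members and lists were chosen with earlier results of these data known. Named genes are the members, AT2G05540 and AT2G05580, all partners, the markers, the 5 likest genes per member, and the glycine-rich genes outside the row with the highest WT level (4 RNA-binding, 5 with at least 30% glycine). AT5G49350 was named outside this rule, after its values were seen. Sequences were read from TAIR10.1 (NCBI RefSeq) and aligned with MAFFT 7.526. Glycine shares come from translated coding sequences because no protein table was used. Library depth was 21577036 to 22778710 expected counts.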

Additional observations from a re-analysis of the deposited data

How the results depend on the processing

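The 12 fold changes of the 4 tested members were refitted under 17 alternatives each, pair sums apart: other scaling, no filter, DESeq2, limma on log2 FPKM with pseudocounts of 1 and 0.1, only the 2 genotypes compared, the replicate block and each library left out. All 204 values kept their direction, and 193 were labelled as unchanged. For tested values this means that they kept their side of the threshold. For GRP9 against WT, which carries no test, it means a shift smaller than the spread of its libraries. GRP3S and GRP3 in bbx202122 against WT lost their calls without the libraries named above (5 values). GRP3 in bbx202122 against hy5 was called under 6 alternatives, with 0.32 (adjusted p = 0.01) for library size only and adjusted p = 0.0023 without bbx202122 replicate 3, and the sum with GRP3S turned its direction (-0.17, adjusted p = 0.18), since GRP3S makes up most of that sum. Called genes in bbx202122 against WT were 2236 to 3482 with 1 library left out, against 3504, the lowest without WT replicate 2. Replicate numbers were shared by the genotypes. Deviations of same-numbered libraries correlated at -0.09 to 0.18, over 0.1 in 1 of 9 pairs. Such values cannot tell whether same-numbered libraries had a culture or batch in common. With the replicate as a block the called genes were 3143 in bbx202122 against WT, 7884 in hy5 against WT and 4445 in bbx202122 against hy5. Depth limits AT2G05530, with at most 3 counts in a library.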

Other observations

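Outside the row, 46 other genes had a protein of at least 30% glycine, and 36 of them were tested. In bbx202122 against WT 4 rose and 4 fell, where 8.62% of all genes rose and 8.27% fell. In hy5 against WT 14 rose and 8 fell, where 19.6% of all genes rose and 19.8% fell. Their median log2 fold change was 0.05 in bbx202122 and 0.18 in hy5, beside 0.01 and 0.00 over all genes tested. The 5 with the highest WT level per length were GRP7, GRP23, AT5G10435, GRP8 and RAB18. GRP23 rose by 0.28 ± 0.09 in hy5 (edgeR, adjusted p = 0.019) and AT5G10435 by 1.41 ± 0.22 (adjusted p = 0.00013). GRP8 and RAB18, a dehydrin, passed the test in neither mutant, with 0.12 ± 0.06 and -0.18 ± 0.18 in bbx202122 and 0.12 ± 0.06 and 0.10 ± 0.18 in hy5. The gene AT5G49350, singled out after its values were seen, averaged 5.42 ± 0.9 CPM in bbx202122, 2 ± 0.37 CPM in hy5 and 11.2 ± 0.23 CPM in WT (SD, n = 3 each). Against WT its log2 fold change was -1.05 ± 0.12 in bbx202122 and -2.49 ± 0.15 in hy5. These values chose the gene and carry no test.

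Of 13 RNA-binding or cold-shock-domain glycine-rich proteins, 1 rose and 2 fell in bbx202122, and 2 rose and 3 fell in hy5, beside 16.9% and 39.5% of all genes called. GRP7, an RNA-binding protein of the circadian system, rose by 0.49 ± 0.07 in bbx202122 (edgeR, adjusted p = 0.00012) and by 0.68 ± 0.07 in hy5. GR-RBP2 and the cold-shock-domain protein CSP2 had -0.07 ± 0.07 and -0.14 ± 0.09 in bbx202122 and -0.08 ± 0.07 and -0.07 ± 0.09 in hy5, and neither passed the test. Of 6 pollen coat glycine-rich genes 1 passed the filter, and it fell in hy5 (-1.25 ± 0.39, edgeR, adjusted p = 0.018), where 19.8% of all genes fell. In bbx202122 it had 0.31 ± 0.31 (edgeR, adjusted p = 0.55). It averaged only 0.267 CPM in hy5 and 0.647 CPM in WT, where 3 counts correspond to 0.127 to 0.143 CPM.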
